A study of Mus musculus with 7 samples.

Results

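Fut2 and 9 enzymes that build the sugar chains of mucins were followed in the ileum of mice given low-dose penicillin from birth. The 10 genes were a chosen list, and each was read through the probe sets that the array's annotation gives to that gene alone. There were 23 such probe sets among 34945 with a single gene, and the 10 genes were among 18193. The penicillin group was 4 male C57BL6J mice given 6.7 mg/L penicillin since birth. The control group was 3 male C57BL6J mice that had received no antibiotic. All 7 mice were weaned onto chow at 4 weeks, were moved at 6 weeks to a high-fat diet (45% of calories), and gave terminal ileum at 8 weeks. The mice are labelled as biological replicates. Litter and cage were not among the details used here, so a litter or cage difference cannot be told apart from penicillin.

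Mucins are the proteins of intestinal mucus, and most of their mass is sugar chains linked to serine and threonine. A GalNAc transferase of the Galnt family adds the first sugar, N-acetylgalactosamine. C1galt1 adds galactose to make the core 1 structure and needs its chaperone C1galt1c1, also called Cosmc. Gcnt1 and Gcnt3 add a branch to the core, B3gnt enzymes can lengthen chains, and fucose or sialic acid caps the ends. Fut2 adds terminal fucose in an alpha-1,2 linkage. In mouse ileum its expression is known to depend on gut microbes and on interleukin 22 and lymphotoxin from innate lymphoid cells.

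No member passed the test in penicillin against control mice. The members with the lowest penicillin values relative to control were Gcnt1, Fut2 and B3gnt7, at log2 differences of -0.72, -0.63 and -0.25. The enzymes that start chains and build core 1 had differences between -0.11 and 0.11. In limma, a linear model fitted across all genes, 0 of the 10 members had a Benjamini-Hochberg adjusted p under 0.05, where 0.0953% of 13644 genes tested did. Of the 23 probe sets fitted one by one, 0 passed, where 0.0687% of 26208 probe sets did. At an unadjusted p under 0.05 there were 2 members lower, Fut2 and B3gnt7, and 0 higher, where 6.35% of all genes were lower and 4.37% higher. Of the 10 members 7 had lower values and 3 had higher values, and 54.7% of all genes had lower values. The median difference was -0.090 over the members and -0.014 over all genes tested. All 10 members and all 23 probe sets passed the filter on low values.

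**Figure D1:**
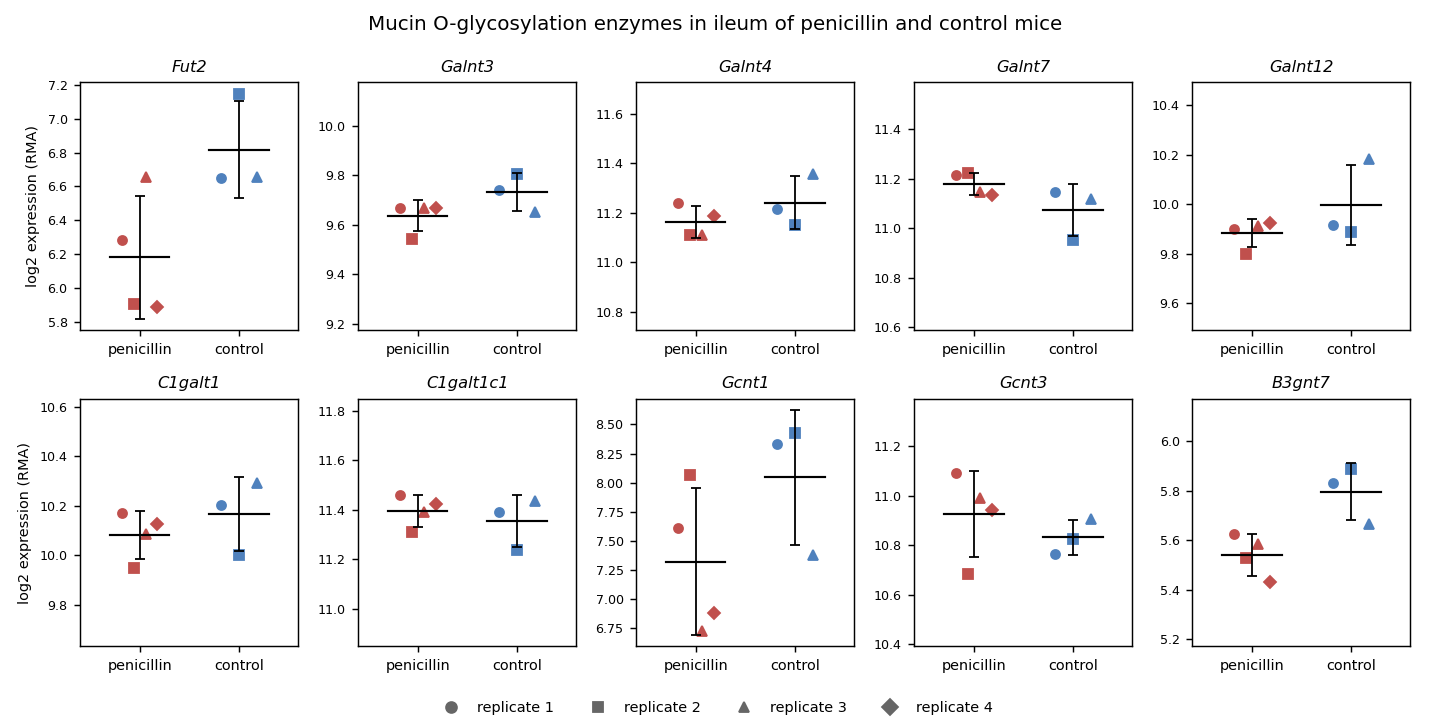
Log2 expression (vertical axis, 1 scale per gene) of the 10 members in 4 penicillin and 3 control mice, with points for mice, horizontal lines for group means and bars for the SD. Only B3gnt7 has every penicillin mouse below every control mouse, and Gcnt1 and Fut2 have the widest scatter.

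Fut2, the alpha-1,2-fucosyltransferase, stood at log2 6.28, 5.91, 6.65 and 5.89 in penicillin mice, against 6.65, 7.15 and 6.65 in control mice. Of the penicillin mice 3 were below all controls, and penicillin replicate 3 was level with the lower controls, so the groups overlapped. The means were 6.18 ± 0.362 in penicillin mice (SD, n = 4) and 6.82 ± 0.287 in control mice (SD, n = 3). The difference was -0.63 ± 0.21 (SE), or 1.55-fold lower, with a 95% interval from -1.12 to -0.14 and a limma adjusted p of 0.397. The interval lay below 0 before adjustment for the number of genes tested. The second Fut2 probe set was dim, with a mean of log2 4.27, where these values cannot tell a signal from background, and it differed by -0.060 ± 0.058 (SE). With the probe sets averaged the Fut2 difference was -0.35 ± 0.12 (SE, adjusted p = 0.388). Fut2 scattered widely within groups: 96.2% of all genes tested had a smaller residual SD.

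By the size of their departure from their own means, the 5 genes nearest to Fut2 over the 7 arrays were Duoxa2, Gpx2, Tifa, U90926 and Flnc. The measure was the root mean square difference between log2 profiles, each with its mean over the arrays subtracted, and it was 0.156 for Duoxa2 and 0.226 for Flnc, the ends of the range. Duoxa2, the maturation factor of an epithelial oxidase, was at 5.68, 5.63, 6.17 and 5.43 in penicillin mice, against 6.54, 6.84 and 6.17 in control mice. As for Fut2, penicillin replicate 3 was the highest of its group and level with control replicate 3. Gpx2, a glutathione peroxidase of the gut epithelium, was at 12.6, 12.6, 12.9 and 12.6 in penicillin mice, against 13.2, 13.3 and 13.2 in control mice. Its groups did not overlap, and the difference was -0.57 ± 0.090 (SE, limma adjusted p = 0.0956). Tifa, an adaptor of NF-kB signalling, differed by -0.69 ± 0.15 (SE, adjusted p = 0.196). U90926 differed by -0.39 ± 0.20 and Flnc, an actin-binding filamin, by -0.33 ± 0.13 (SE, adjusted p = 0.512 and 0.433). All 5 had lower values in penicillin mice, as Fut2 did. The measure picks genes for their likeness to Fut2 on the same arrays as the comparison. Their differences, and the high place of penicillin replicate 3 in its group, are therefore a description only.

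**Figure D2:**
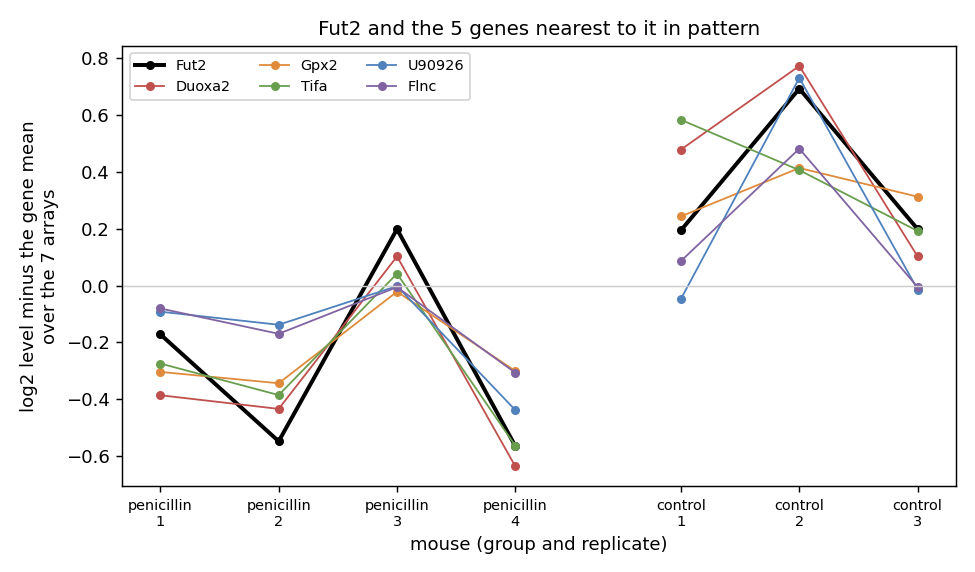
Log2 level minus each gene's mean over the 7 arrays (vertical axis) by mouse (horizontal axis) for Fut2, in black, and the 5 genes nearest to it in pattern. Lines only join the points of a gene within a group. All 6 genes are highest in penicillin replicate 3 among the penicillin mice, a likeness that the choice of nearest genes favours.

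Among the enzymes that start chains, the 4 Galnt members differed little. Galnt3, which is also known for protecting the phosphate hormone FGF23 from cleavage, stood at 9.67, 9.54, 9.67 and 9.67 in penicillin mice, against 9.74, 9.80 and 9.65 in control mice. The difference was -0.096 ± 0.060 (SE), and the groups overlapped through control replicate 3. Galnt4 stood at 11.2, 11.1, 11.1 and 11.2 in penicillin mice, against 11.2, 11.2 and 11.4 in control mice, with a difference of -0.080 ± 0.067 (SE). Galnt7, known to prefer peptides that already carry a sugar, stood at 11.22, 11.22, 11.15 and 11.13 in penicillin mice, against 11.15, 10.95 and 11.12 in control mice. Its difference was 0.11 ± 0.063 (SE), and every penicillin mouse was above control replicates 2 and 3. Galnt12 stood at 9.90, 9.80, 9.91 and 9.92 in penicillin mice, against 9.92, 9.89 and 10.2 in control mice, and differed by -0.11 ± 0.082 (SE). Control replicate 3 was the highest of the 7 mice for Galnt4 and Galnt12.

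The probe sets of the Galnt members mostly kept to small differences. All 3 probe sets of Galnt7 were higher in penicillin mice, by 0.021 to 0.11, and all 3 of Galnt3 were lower, by -0.096 to -0.046. Galnt4 had 2 brighter probe sets at -0.080 and -0.043 and a dim one, at a mean of log2 4.54, at 0.19 ± 0.089 (SE). With the 3 probe sets averaged, Galnt4 differed by 0.023.

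The core 1 pair showed overlapping groups. C1galt1 stood at 10.17, 9.95, 10.08 and 10.13 in penicillin mice, against 10.20, 10.003 and 10.29 in control mice, and differed by -0.084 ± 0.086 (SE). Penicillin replicate 2 and control replicate 2 were the lowest of their groups. Of the 3 probe sets of C1galt1, 2 were lower and 1 higher, from -0.084 to 0.027. C1galt1c1, the chaperone without which C1galt1 is not active, stood at 11.46, 11.31, 11.39 and 11.42 in penicillin mice, against 11.39, 11.24 and 11.44 in control mice. Its difference was 0.041 ± 0.067 (SE), smaller than its error, and its second probe set, at a mean of log2 4.62, differed by 0.11 ± 0.12 (SE).

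For the brightest probe sets of these 6 genes and of Gcnt3 the 95% intervals of the difference lay between -0.30 and 0.32. A change larger than 1.25-fold in either direction was outside the interval of each of these 7 probe sets. Some dimmer probe sets of the same genes had intervals that reached further, to 0.40 for Galnt4, 0.38 for C1galt1c1 and 0.36 for Gcnt3. The limma adjusted p of the 7 genes ranged from 0.555 for Galnt7 to 0.815 for C1galt1c1. Such p-values do not show that penicillin and control mice were alike.

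**Figure D3:**
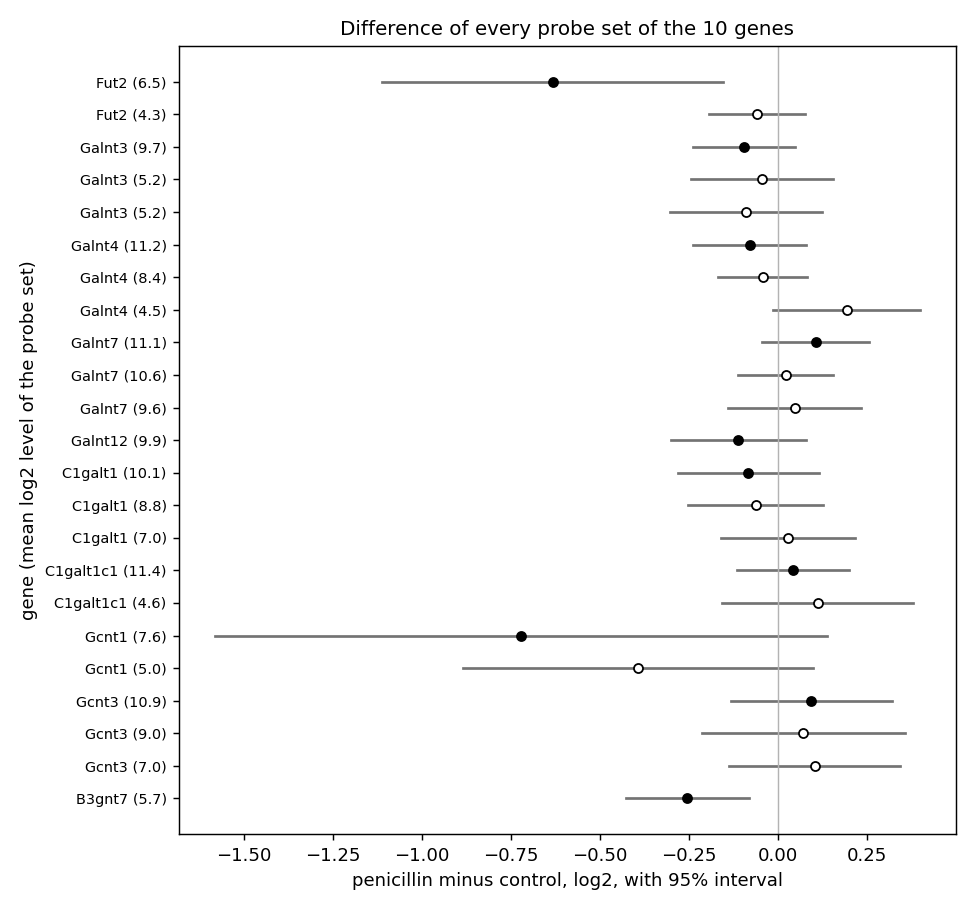
Difference between penicillin and control mice (horizontal axis, log2, penicillin minus control) with its 95% interval for each of the 23 probe sets, named by gene and by mean log2 level on the vertical axis. Filled points mark the brightest probe set of a gene, and the Fut2 probe set at 6.45 and the B3gnt7 probe set have intervals below 0.

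The branching enzymes Gcnt1 and Gcnt3 differed in how much they scattered. Gcnt1, the core 2 enzyme found in many tissues and in activated T cells, stood at 7.61, 8.07, 6.73 and 6.88 in penicillin mice, against 8.33, 8.43 and 7.38 in control mice. Penicillin replicate 2 was well above control replicate 3, so the groups overlapped. The means were 7.32 ± 0.630 in penicillin mice (SD, n = 4) and 8.04 ± 0.578 in control mice (SD, n = 3). The difference of -0.72 ± 0.38 (SE, 1.65-fold) had a 95% interval from -1.61 to 0.16 and a limma adjusted p of 0.519. It was the largest difference of any member, and 99.4% of all genes tested had a smaller residual SD. The dimmer Gcnt1 probe set stood at 4.97, 5.18, 4.54 and 4.76 in penicillin mice, against 5.18, 5.71 and 4.87 in control mice. Both probe sets put the mice of each group in the same order, and the dimmer one differed by -0.39 ± 0.21 (SE).

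Markers of intraepithelial and T lymphocytes had lower values in penicillin mice, and their part in the Gcnt1 difference was not tested. All 8 of 8 markers had lower values, and 1, Itgae, passed over all genes. Over all genes tested 54.7% had lower values and 0.0953% passed. The mean of the 8, relative to its mean over the 7 arrays, was -0.63 to -0.14 in penicillin mice and 0.36 to 0.72 in control mice. Penicillin replicate 2, the highest of its group for Gcnt1, was also the highest of its group for these markers, at -0.14. Control replicate 3, with a marker mean of 0.36, had less Gcnt1 than penicillin replicates 1 and 2. In a whole piece of ileum, fewer cells of a type and less RNA per cell cannot be told apart.

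Gcnt3, the branching enzyme of mucus-making epithelia that makes core 2 and core 4, stood at 11.09, 10.68, 10.99 and 10.94 in penicillin mice, against 10.77, 10.83 and 10.91 in control mice. The control mice lay inside the range of the penicillin mice. The difference was 0.093 ± 0.098 (SE, limma adjusted p = 0.709), and the other 2 probe sets differed by 0.071 and 0.10. All 3 probe sets put penicillin replicate 1 highest and penicillin replicate 2 lowest of the penicillin mice. For Gcnt1 it was penicillin replicate 2 that was highest.

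**Figure D4:**
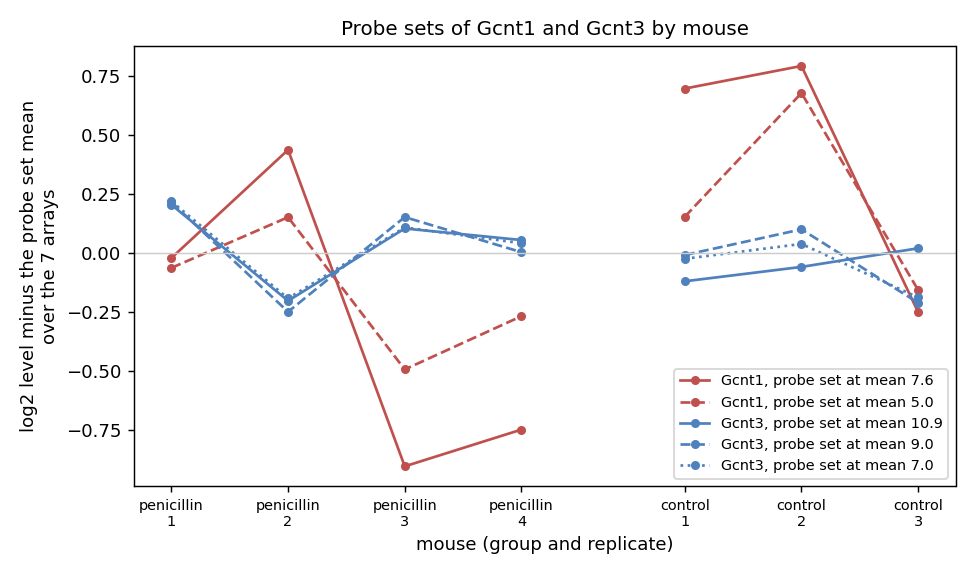
Log2 level minus the probe set's mean over the 7 arrays (vertical axis) by mouse (horizontal axis) for the 2 probe sets of Gcnt1, in red, and the 3 of Gcnt3, in blue. Lines only join points within a group, and Gcnt1 spans a wider range than Gcnt3 in both groups.

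B3gnt7, which adds N-acetylglucosamine to lengthen chains and is known from keratan sulphate synthesis, was the only member whose groups did not overlap. It stood at 5.62, 5.53, 5.58 and 5.43 in penicillin mice, against 5.83, 5.89 and 5.67 in control mice. Every penicillin mouse was below every control mouse for 1 of the 10 members, where this held for 6.05% of all genes tested. The difference was -0.25 ± 0.074 (SE, 1.19-fold) with a 95% interval from -0.43 to -0.082 and a limma adjusted p of 0.335. With array quality weights, which also called 774 genes, it was -0.29 ± 0.050 (SE, adjusted p = 0.0271). In the fit over single probe sets with such weights, 0 of the 23 member probe sets passed, that of B3gnt7 included. B3gnt7 had 1 probe set, at a mean of log2 5.65, so no second probe set could be compared.

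Of the list of GDP-fucose and nucleotide sugar supply 14 genes were tested, and none passed over all genes. In 4 of the 14 every penicillin mouse was below every control mouse, where this held for 6.05% of all genes tested. Gmds makes the intermediate from which GDP-fucose, the donor used by Fut2, is built. It stood at 12.17, 12.11, 11.95 and 12.01 in penicillin mice, against 12.40, 12.39 and 12.41 in control mice. Its 3 controls were close together, with an SD of 0.010, and every penicillin mouse was below them. The difference was -0.34 ± 0.064 (SE, 1.27-fold, limma adjusted p = 0.148), and the second Gmds probe set differed by -0.15 ± 0.085 (SE). With array quality weights the adjusted p of Gmds was 0.0210.

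Slc35c1, the GDP-fucose transporter of the Golgi, stood at 8.64, 8.58, 8.63 and 8.68 in penicillin mice, against 8.89, 8.74 and 8.90 in control mice. Its single probe set differed by -0.21 ± 0.059 (SE, adjusted p = 0.308). Slc35a2, the UDP-galactose transporter, differed by -0.22 ± 0.065 (SE, adjusted p = 0.345), but its 6 probe sets ranged from -0.22 to 0.10, with 2 of them higher. Fcsk, the kinase that salvages free fucose, was named after its value was seen and differed by -0.11 ± 0.047 (SE, adjusted p = 0.454). By their brightest probe sets, Gmds, Slc35c1, Slc35a2 and Fcsk were the 4 genes whose groups did not overlap. In the other probe sets of Gmds, Slc35a2 and Fcsk the groups overlapped, and those of Fcsk differed by -0.13 and -0.050. Gfus, also called Tsta3, which completes GDP-fucose, was named after its value was seen and differed by 0.060 ± 0.047 (SE). Of the 14 genes 9 had lower and 5 higher values, with a median of -0.037, and 4 were lower and 0 higher at an unadjusted p under 0.05, where 6.35% of all genes were lower and 4.37% higher. With probe sets averaged that count was 2.

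**Figure D5:**
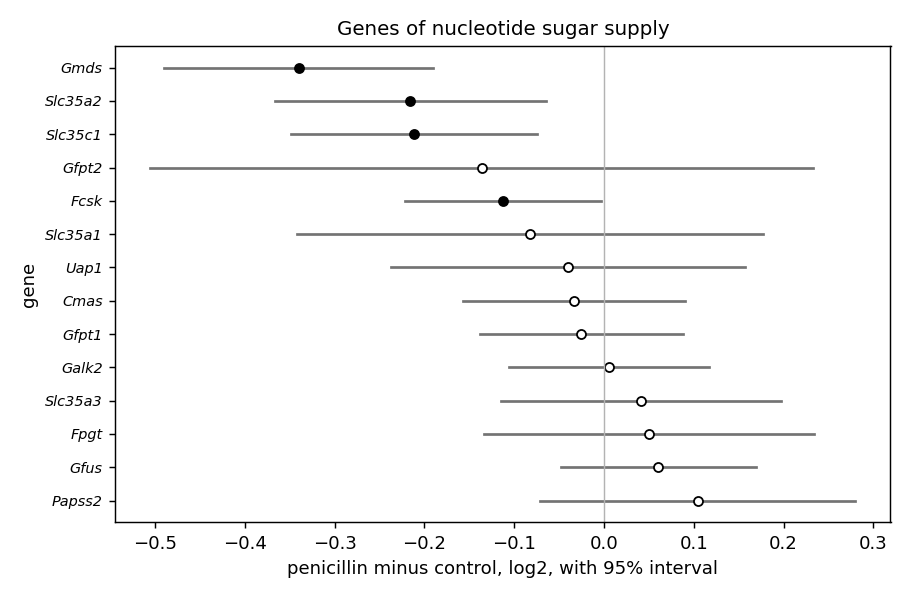
Difference between penicillin and control mice (horizontal axis, log2, penicillin minus control) with its 95% interval. The vertical axis holds the 14 genes tested of the list of GDP-fucose and nucleotide sugar supply. Filled points mark the 4 genes whose groups do not overlap in the brightest probe set. These are Gmds, Slc35a2, Slc35c1 and Fcsk, and all 4 are lower in penicillin mice.

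No gene of the other lists of the pathway passed over all genes either. Of 11 other GalNAc transferases tested 7 had lower values, with 2 lower and 0 higher at an unadjusted p under 0.05. Over all genes tested 54.7% had lower values, and 6.35% were lower and 4.37% higher at that p. The 2 were Galnt18 at -0.26 ± 0.092 and Galnt9 at -0.22 ± 0.087 (SE), both dim, with means of log2 5.57 and 4.77. Galnt10, which also prefers glycosylated peptides, differed by -0.084 ± 0.053 (SE). Of 9 other branching and extending enzymes 5 had lower values. B3gnt5, which starts lacto-series glycolipids, was at -0.30 ± 0.12 and B3galt5 at -0.19 ± 0.11 (SE).

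Of 7 other fucosyltransferases tested 3 had lower and 4 higher values, with a median difference of 0.0022. Fut8, which adds fucose to the core of N-linked chains, differed by -0.13 ± 0.057 (SE, adjusted p = 0.467), and its groups did not overlap. Its other 2 probe sets were at -0.039 and 0.023. Fut10 differed by 0.079 ± 0.067 and Fut4, which makes alpha-1,3 linkages, by -0.071 ± 0.068 (SE). Fut1, Fut9 and Sec1 lay under the filter on low values and were not tested. Of 14 capping enzymes tested 8 had lower and 6 higher values. St6gal1, a sialyltransferase of N-linked chains, was at -0.34 ± 0.14 (SE) with its other probe set at 0.043, and St6galnac2, which adds sialic acid to core GalNAc, was at 0.16 ± 0.068 (SE).

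The mucin proteins that carry these chains did not pass. Of 7 tested, 4 had lower values, with a median of -0.0027. Muc2, the gel-forming mucin of goblet cells, stood at 13.26, 13.09, 13.32 and 13.12 in penicillin mice, against 13.41, 13.45 and 13.24 in control mice, and differed by -0.17 ± 0.081 (SE, limma adjusted p = 0.501). Muc4, a membrane mucin, differed by -0.46 ± 0.14 (SE, adjusted p = 0.364), and every penicillin mouse was below every control mouse. Its second tested probe set was at -0.29 ± 0.097 (SE), and the third, under the filter, was 0.10 higher. The mean of 9 goblet cell markers, relative to its mean over the 7 arrays, lay between -0.089 and 0.099 in penicillin mice and between 0.0050 and 0.037 in control mice.

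Of the list of interleukin 22 and lymphotoxin signals to the epithelium 7 genes were tested and 5 had lower values, with a median of -0.10. Ltb, a lymphotoxin chain, stood at 6.43, 6.43, 6.11 and 6.22 in penicillin mice, against 6.66, 6.47 and 6.82 in control mice. Every penicillin mouse was below every control mouse, and the difference was -0.34 ± 0.11 (SE, limma adjusted p = 0.391). Il18, an epithelial cytokine, differed by -0.49 ± 0.27, and Il10rb, a chain of the interleukin 22 receptor, by 0.19 ± 0.10 (SE). Il22 and Il23r are not analysed here.

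The arrays were those of ileum, with Fabp6, the ileal bile acid carrier, between log2 14.3 and 14.6 in all 7 mice. Control replicate 3 stood apart, at -30.0 on the first principal component, against -2.90 to 17.6 for the others. The mean of 8 colon markers, relative to the 7 arrays, was -0.55 to 0.096 in penicillin mice and -0.26 to 1.499 in control mice, with the highest value in control replicate 3. Control replicates 1 and 2, at -0.26 and -0.20, lay inside the range of the penicillin mice. Of the 5 colon markers tested 4 had lower values in penicillin mice, and Hoxb13, Hoxd10 and Hoxd13 lay under the filter. Without control replicate 3 the differences were -0.71 for Fut2, -1.06 for Gcnt1 and -0.32 for B3gnt7, each further from 0. No member passed in limma, and the adjusted p of these 3 was 0.371, 0.381 and 0.178. Galnt3, Galnt7, C1galt1c1 and Gcnt3 also moved further from 0, to -0.14, 0.13, 0.082 and 0.13. Galnt4, Galnt12 and C1galt1 moved closer to 0, to -0.023, -0.019 and -0.020. All 5 Paneth cell markers had lower and all 9 absorptive enterocyte markers higher values in penicillin mice. Over all genes tested 54.7% had lower values. The mean of the 5 Paneth cell markers was -0.34 to -0.11 in penicillin mice and 0.21 to 0.35 in control mice, and that of the 9 absorptive enterocyte markers was -0.096 to 0.72 in penicillin mice and -0.97 to -0.0050 in control mice. The enterocyte value of -0.97 was that of control replicate 3. Control replicates 1 and 2, at -0.062 and -0.0050, lay inside the enterocyte range of the penicillin mice. The part of these cell types in the members' differences was not tested. The means of 5 markers of stem and cycling cells and of 6 markers of smooth muscle overlapped between the groups. Of the 5 markers of stem and cycling cells 2 had lower and 3 higher values. Ascl2, a stem cell transcription factor, was at 7.07 to 7.31 in penicillin mice and 6.74 to 6.96 in control mice. It differed by 0.28 ± 0.082 (SE, limma adjusted p = 0.333), and Top2a, of the same list, by -0.28 ± 0.14 (SE, adjusted p = 0.508).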

How the data were processed

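Total RNA was hybridised to Affymetrix mouse arrays, and the deposited unit is log2 expression, 1 value a probe set. The submitters' processing notes name RMA and affy. For versions and build, none was given in the sources used here. No coordinates are printed. RMA gives no detection call. In 56.5% of probe sets at least 2 arrays held exactly the same value, and 6 of the 23 member probe sets were among these.

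Of 45101 probe sets, 34958 named 1 gene, 932 several and 9211 none. The 34945 used were those with 1 gene, less manufacturer's controls, of which the table held 64, most of them not among those with 1 gene. Symbols came from the platform annotation of the arrays and were updated by gene ID from a RefSeq gene table. Each gene was read from its brightest probe set (by mean over all arrays). Genes at or under the 25th percentile of means (log2 4.588) were left out, which left 13644. The test of penicillin against control was that of limma 3.58.1, run in R 4.3.3 (lmFit, eBayes, two-sided, Benjamini-Hochberg adjusted p under 0.05 over all genes). The same fit ran over 26208 single probe sets above log2 4.244, and values of single probe sets come from it. It was tested on simulated data. Figures used matplotlib 3.10.9 in Python 3.11.15.

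The members, the gene lists and the tests were chosen with earlier results of these data known. All members are named. Of each pathway list the genes passing over all genes, and up to 3 others with the largest moderated t, could be named, and up to 2 of each marker list. Fabp6 was named to check the tissue, and genes under the filter for completeness. The number of arrays limits the precision.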

Additional observations from a re-analysis of the deposited data

Results flagged for a closer look

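Among the 4 penicillin mice, the brightest Galnt3 probe set had replicate 2 at log2 9.54 and the other 3 mice at exactly the same 9.67. The gap of replicate 2 to the nearest mouse, divided by the range of the group, was therefore 1, above Dixon's 95% critical value for 4 samples. Of the 23 member probe sets checked this way 1 passed that value, and chance flags about 1 in 20 groups. The other Galnt3 probe sets did not pass it.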

How the results depend on the processing

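Under the other settings 0 members passed in limma, except that array quality weights called 1, B3gnt7. Array quality weights called 774 genes in all, probe set means 7 and an adjusted p threshold of 0.1 called 40. No gene was called with an unmoderated statistic or with the replicate block, where 1238 and 803 genes had an unadjusted p under 0.05. Leaving out 1 mouse gave 0 to 15 calls, and leaving out control replicate 3 and penicillin replicate 3 together gave 2. The 2 members at an unadjusted p under 0.05 became 4 with array quality weights, 1 with an unmoderated statistic, 1 with the replicate block (Gcnt1, in place of Fut2 and B3gnt7) and 0 when genes under the 50th percentile were dropped, which removed Fut2 and B3gnt7. Leaving out 1 mouse gave 1 to 4: only B3gnt7 without control replicate 2, and Fut2, Gcnt1, B3gnt7 and Gcnt3 without penicillin replicate 2. Same-numbered mice did not deviate together (r = -0.164, 0.0030 and -0.416), and r of differently numbered mice ranged from -0.367 to 0.375. With so few mice these values cannot show whether the replicate numbers mark a shared litter or cage. Penicillin replicate 4 adds nothing to the block fit. Fut2 was lower under all 17 alternatives that kept it, by -0.87 to -0.35, and Gcnt1 under all 18, by -1.06 to -0.52. Galnt4 turned to 0.023 with probe set means, and C1galt1c1 to -0.0016 with array quality weights and to -0.019 without control replicate 2, the low end of a range up to 0.082 when 1 mouse was left out. None of the 23 member probe sets passed under any other setting. The alternatives for the list of nucleotide sugar supply were added after the data were seen, and 3 of its genes passed with array quality weights and 0 otherwise. The cause of these shifts was not tested. Dim probe sets, such as the second of Fut2, limit what could be seen.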
